A study of Mus musculus with 109 samples.

Results

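The distal part of mouse chromosome 11 described here is the 17-Mb stretch chr11:94000001-111000000 of the mm9 build, seen from baits on chromosome 8. Its members were all HindIII sites of the deposited table inside these coordinates, which gave 4673 of the 823352 sites of the genome. They are 0.596% of the 783872 sites on chromosomes other than 8, which are called trans sites because the baits lie on another chromosome. The stretch holds the starts of 421 protein-coding genes, with a median of 24 per 1-Mb bin (range 4 to 79), against a median of 6 over all 2456 trans bins. Its median GC content per bin was 47.1%, against 41.4% over the trans bins. Its median number of HindIII sites per bin was 279, against 325.

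The study followed chromatin contacts of chosen baits by 4C-seq (circular chromosome conformation capture) through early G1 phase in C127 cells, an established line from a mouse mammary tumour. Formaldehyde-fixed chromatin was cut with HindIII, ligated, cut again with DpnII, and amplified from each bait before 50-base reads were taken. The 6 baits of chromosome 8 were used here, in 64 libraries. Libraries were labelled mitosis (4-hour nocodazole block, 4 baits), 30 min and 1 h after release (2 libraries per bait each), 2 h, 3 h and 4 h after release (1 library per bait each), G2 (15-hour release, 1 per bait) and G0 (5 days without serum, 2 per bait). No agent or genotype other than these synchronisation steps was labelled, and the submitters picked the baits by how their replication timing is regulated.

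Chromosomes occupy territories in the nucleus, and contacts between different chromosomes are rarer than contacts within one. In mammalian nuclei, gene-dense, GC-rich, early-replicating chromatin (the A compartment) tends to meet other such chromatin, and gene-poor, late-replicating chromatin (the B compartment) tends to lie with its own kind near the nuclear lamina. Distal mouse chromosome 11 is a gene-dense stretch with the Hoxb genes, the type I keratin genes, Erbb2, Stat3, Stat5a, Stat5b and Brca1.

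The baits are the fixed ends of every contact counted below, so their primers are shown, 5′ to 3′ on the forward strand of mm9 chromosome 8, with the HindIII site in capitals. B26 (chr8:26774313-26774332) lies inside Whsc1l1, and B87 (chr8:87434064-87434081) inside Dnase2a. They have 19 and 38 protein-coding genes within 500 kb and are the gene-rich baits. B118 (chr8:118459309-118459328) has 1 such gene and B44 (chr8:44417335-44417354) has 8. B7 (chr8:7223950-7223970) and B53 (chr8:52961959-52961978) have 0 and are the gene-poor baits.
B26: ttgagtttgacgccAAGCTT
B87: gggcggagatggAAGCTT
B118: cctcatacagctggAAGCTT
B44: ggtcatccctttagAAGCTT
B7: tattaggacagacagAAGCTT
B53: aaacatgtttggccAAGCTT

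The following 3 sites of distal chromosome 11 were captured in the most libraries, and each is shown with 40 bases on both sides (forward strand, HindIII site in capitals). The first lies in an intron of Rpl19, a ribosomal protein gene (chr11:97889848-97889853). The second lies between genes, 5401 bp from Kpna2, which encodes a nuclear import receptor (chr11:106844542-106844547). The third also lies between genes, 9795 bp from Fam20a (chr11:109593388-109593393).
Rpl19 intron: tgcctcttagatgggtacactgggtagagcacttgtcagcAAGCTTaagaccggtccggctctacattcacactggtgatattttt
near Kpna2: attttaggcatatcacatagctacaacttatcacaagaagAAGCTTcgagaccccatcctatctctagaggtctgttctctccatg
near Fam20a: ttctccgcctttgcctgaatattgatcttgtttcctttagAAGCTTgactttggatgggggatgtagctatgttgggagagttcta

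A site counted as captured when it had 1 read or more in a library. The site in Rpl19 was captured in 14 of the 64 libraries (3 of B26, 3 of B87, 7 of B44 and 1 of B7), with 381 reads in all. The site near Kpna2 was also captured in 14 libraries (3 of B87, 10 of B44 and 1 of B7), and that near Fam20a in 12 (1 of B26, 9 of B44 and 2 of B7). Even the most shared sites of the stretch were therefore not captured in most libraries, and B44, which captured the most trans sites of the 6 baits, gave more of their captures than any other bait.

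Contacts were spread thinly over the stretch. Of its 4673 sites, 1016 were captured in no library, 779 in 1 library, 2406 in 2 to 5 libraries, 435 in 6 to 9 and 37 in 10 or more. At least 1 capture was seen at 78.3% of the sites of distal chromosome 11, against 65.2% of all trans sites. Captures in 10 or more libraries were seen at 0.792%, against 0.534% of all trans sites.

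Reads per column ran from 266006 to 8826711, and captured trans sites per library from 2801 to 119879, with the fewest at 3 h and 4 h. At all 6 baits the columns labelled 1 h replicate 2 and 2 h technical replicate 1 had 63.4% to 96.7% of the captured sites of distal chromosome 11 in common, as a share of the smaller column. The 2 h technical replicate 1 column was left out for that reason. A library labelled G0 also shared 81.5% of trans sites with 1 h replicate 2 at B118, 50.7% at B53 and 29.4% at B26. At B7 the libraries labelled 30 min replicate 2 and 3 h shared 32.0%. The median over all 310 pairs of libraries within a bait, these pairs included, was 7.14%. Values without the G0 libraries and 1 h replicate 2 are given beside the main comparisons.

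The first comparison asked how often each bait captured distal chromosome 11, relative to its share of trans HindIII sites. The unit is log2 of captured over expected sites in a library, with 0.5 added to both. Both gene-rich baits and the baits B118 and B44 captured it more often than its share, and the gene-poor baits did not pass the test. With the sites the other 5 baits captured as reference, B26 was at 0.22, B87 at 0.67, B118 at 0.15 and B44 at 0.062. B7 (-0.21, adjusted p = 0.00586) and B53 (-0.27, adjusted p = 0.0293) fell below 0 in that permutation test. This reference holds only sites that at least 1 other bait captured, and all 6 baits were lower with it. Sites with at least 1 capture were 78.3% of the stretch and 65.2% of all trans sites. Why the values fell was not tested. A value below 0 is then relative to the sites of the other baits, and does not show captures below the share of all trans sites. With reads, B7 was also below 0 (-0.27, adjusted p = 0.00586, permutation test). The levels ran, from highest to lowest mean, B87, B26, B118, B44, B7 and B53.

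B87, in the Dnase2a locus, captured 1985 sites of distal chromosome 11 over its 10 libraries, against 1042 expected, a ratio of 1.90. Its share of captures per library was lowest at 0.613%, had a median of 1.06% and reached 1.52%. The mean log2 value was 0.87 ± 0.38 (SD, n = 10), above 0 in 10 of 10 libraries (adjusted p = 0.00293, two-sided sign-flip permutation test, all flips enumerated, 6 baits).

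B26, in the Whsc1l1 locus, captured 1650 sites against 1149 expected, a ratio of 1.44. Its log2 values ran from 0.13 to 0.71 with a median of 0.48. The mean was 0.46 ± 0.17 (SD, n = 11), above 0 in 11 of 11 libraries (adjusted p = 0.00293, same permutation test). The ranges of the gene-rich baits overlapped.

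The baits in neither class, B118 with 1 and B44 with 8 protein-coding genes within 500 kb, lay lower than B87. By this number B118 is close to the gene-poor baits, which have 0. B118, in a gene-sparse stretch near Maf, captured 1875 sites against 1464 expected, with a lowest log2 value of 0.029, a median of 0.38 and a highest of 0.69. Its mean was 0.37 ± 0.19 (SD, n = 10), above 0 in 10 of 10 libraries (adjusted p = 0.00293, permutation test). B44 captured 4089 against 3307 expected, and its mean was 0.34 ± 0.12 (SD, n = 11), above 0 in 11 of 11 libraries (adjusted p = 0.00293, permutation test). B26, B118 and B44 are neighbours in the order whose libraries overlapped widely.

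Of the gene-poor baits, B7 captured 1066 sites of distal chromosome 11 against 989 expected. Its log2 values ran from -0.56 to 0.21 with a median of 0.11, and the mean was 0.060 ± 0.21 (SD, n = 11, adjusted p = 0.490, permutation test). Of the 11 B7 libraries, 10 were above 0. Without the sparse 4 h library the mean of B7 was 0.12 (adjusted p = 0.00391, permutation test). B53 captured 1146 against 1068 expected, with values from -0.91 to 0.27 and a median of 0.11. Its mean was -0.034 ± 0.38 (SD, n = 11, adjusted p = 0.781, permutation test), and 8 of 11 libraries were above 0.

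**Figure D1:**
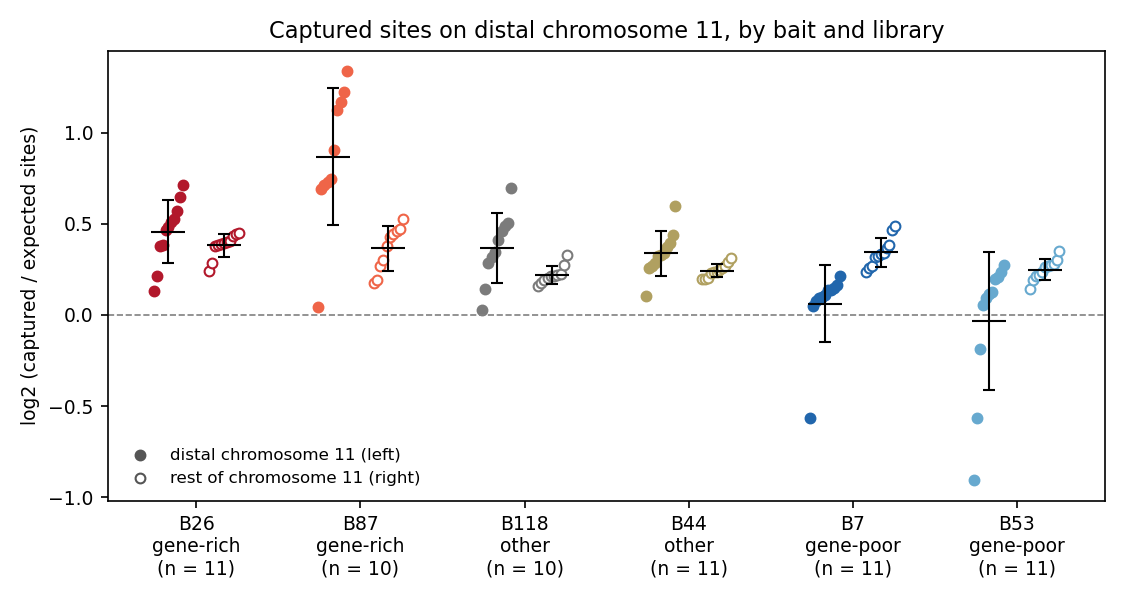
Log2 of captured over expected sites (vertical axis) for each library of the 6 baits, on distal chromosome 11 (filled points, left) and on the rest of chromosome 11 (open points, right). Horizontal bars and whiskers are means ± SD over libraries. B87 has the highest mean on distal chromosome 11 (0.87), and for B7 and B53 the filled points lie mostly below the open ones.

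The lowest libraries of the gene-poor baits held few captures. At B53 the library labelled 4 h captured 14 sites of distal chromosome 11 among 4477 trans sites, or 0.313% (95% exact binomial interval 0.171% to 0.524%), and the 3 h library captured 19 among 4766. At B7 the 4 h library captured 16 among 4007, or 0.399% (0.228% to 0.648%). Such intervals cover counting error only, since reads are PCR products without molecular identifiers. Without the G0 libraries and 1 h replicate 2, the means were 0.43 for B26, 1.00 for B87, 0.39 for B118, 0.34 for B44, 0.036 for B7 and -0.061 for B53, each on the same side of the threshold as before. Without the 3 h and 4 h libraries the mean was 0.12 for B7 (adjusted p = 0.00781, permutation test) and 0.12 for B53 (adjusted p = 0.0352, permutation test), both above 0.

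Chromosome 11 as a whole was captured above its share of sites by every bait. The log2 value of the entire chromosome, averaged over libraries, was 0.39 for B26, 0.44 for B87, 0.24 for B118, 0.26 for B44, 0.31 for B7 and 0.22 for B53. This was not particular to chromosome 11. For B87 the value was 0.38 on chromosome 10, 0.49 on 15, 0.54 on 17 and 0.64 on 19, and for B7 0.39, 0.49, 0.49 and 0.70. Chromosomes 12, 14, 18, X and Y, among others, were below their share at every bait (B87: -0.65 on 12 and -0.73 on 14). A reference from the other 31564 sites of chromosome 11 takes up what the distal stretch shares with its own chromosome, and this reference was added after the data were seen.

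Measured against the rest of chromosome 11, B87 captured the distal stretch more often, and B26 did not pass the test. For B87 the difference in log2 value was 0.50 ± 0.28 (SD, n = 10, above 0 in 9 of 10 libraries, adjusted p = 0.0117, permutation test). For B26 it was 0.075 ± 0.13 (SD, n = 11, above 0 in 7 of 11, adjusted p = 0.0879, permutation test), with means of 0.46 on the distal stretch and 0.38 on the rest. B118 and B44 kept small excesses of 0.15 ± 0.18 (SD, n = 10, adjusted p = 0.0445) and 0.094 ± 0.12 (SD, n = 11, adjusted p = 0.0337) in the same permutation test.

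The gene-poor baits captured distal chromosome 11 less often than the rest of that chromosome. For B7 the difference was -0.28 ± 0.27 (SD, n = 11, above 0 in 0 of 11, adjusted p = 0.00586, permutation test). For B53 it was -0.28 ± 0.38 (SD, n = 11, above 0 in 3 of 11, adjusted p = 0.0234, permutation test). Without the G0 libraries and 1 h replicate 2, B87 was at 0.60 ± 0.19 (n = 7) and B7 at -0.31 ± 0.31 (n = 8), each with an adjusted p of 0.0469 in the permutation test. B118 (0.17), B44 (0.10) and B53 (-0.29) then had an adjusted p of 0.0938, and B26 (0.069) of 0.188, in the same permutation test. Without the 3 h and 4 h libraries, B53 was at -0.13 ± 0.17 (n = 9, adjusted p = 0.0820, permutation test) and B7 at -0.21 ± 0.093 (n = 9, adjusted p = 0.0234, permutation test). B118 (0.098, adjusted p = 0.148) and B44 (0.058, adjusted p = 0.108) did not pass that permutation test, and B87 (0.49, adjusted p = 0.0469) did.

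The second comparison set the gene-rich baits against the gene-poor baits directly. Gene-rich libraries averaged 0.65 ± 0.35 (SD, n = 21), and gene-poor libraries 0.013 ± 0.30 (SD, n = 22). The difference of 0.64 had p = 2e-05 in a two-sided permutation test with 100000 resamples, the smallest these can give. Of the 21 gene-rich libraries, 18 lay above the highest gene-poor library, 9 of 10 of B87 and 9 of 11 of B26. The exceptions were B87 labelled G0 replicate 1 (0.040), B26 labelled 4 h (0.13) and B26 labelled G2 (0.22). Libraries of 1 bait share their primer and locus, and 2 baits against 2 allow no exact two-sided p under 0.333. Without the G0 libraries and 1 h replicate 2, the difference was 0.71 (p = 2e-05, permutation test).

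Both classes were next compared over gene-dense sequence elsewhere and over the rest of chromosome 11, with the 10 labelled libraries that all 4 baits share as the units. On distal chromosome 11 the gene-rich minus gene-poor difference averaged 0.66 ± 0.36 (SD, n = 10). It was 0.45 ± 0.26 in the 189 other trans bins with 24 or more protein-coding gene starts and 0.080 ± 0.091 on the rest of chromosome 11. All 3 values come from the same libraries.

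Distal chromosome 11 exceeded the other gene-dense bins by 0.20 ± 0.24 (SD, n = 10), in 9 of 10 libraries (adjusted p = 0.00391, exact two-sided sign-flip permutation test, 2 comparisons). It exceeded the rest of its chromosome by 0.58 ± 0.33 in 10 of 10 libraries (adjusted p = 0.00391, same exact permutation test). The smallest p that 10 libraries allow is 0.00195. The excess was 0.37 against bins with 10 or more genes and 0.19 against the top 10% of trans bins by GC content. Over gene-dense sequence it was 0.12 without the 3 h and 4 h libraries (unadjusted p = 0.0156, exact permutation test). Without the G0 libraries and 1 h replicate 2, it was 0.20 over gene-dense sequence (p = 0.0312) and 0.64 over the rest of the chromosome (p = 0.0156), both unadjusted in the exact permutation test.

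Bait by bait, B87 averaged 0.87 on distal chromosome 11 and 0.66 on the other gene-dense bins, and B26 averaged 0.46 on distal chromosome 11 and 0.35 on those bins. B7 averaged 0.060 on distal chromosome 11 and 0.051 on the gene-dense bins, and B53 averaged -0.034 and 0.040 over the same 2 sets. The bins in the top 10% of GC content (46.7% or more) gave means of 0.88 for B87, 0.55 for B26, 0.26 for B7 and 0.22 for B53. In these GC-rich bins all 4 baits were thus above their share. The means of B87 and B26 on distal chromosome 11 were not above those in the GC-rich bins, and those of B7 and B53 were below them.

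To locate the difference within the stretch, captured sites were summed per bait in 1-Mb bins over all trans chromosomes, and the 2 gene-rich sums were tested against the 2 gene-poor sums with edgeR. Of the 17 bins of distal chromosome 11, 9 were higher with the gene-rich baits at an adjusted p under 0.05 and 0 were lower, where 8.70% of all 2401 tested bins were higher and 10.7% were called in either direction. The median log2 fold change was 0.81 over the 17 bins, and -0.019 over all tested bins. Other gene-dense bins were higher in 76 of 185 (41.1%, median 0.54), and the rest of chromosome 11 in 17 of 102 (16.7%, median 0.045). Without TMM scaling, 182 of the 300 called bins were higher, against 209 of 258 with it.

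Most called bins were the gene-dense ones. Of the 9 bins at or above the median of 24 gene starts, 8 were called, and the 9 fold changes ran from 0.70 to 1.39 on the log2 scale. Of the 8 bins below it, 1 was called, and their median was 0.16. Over the 17 bins, Spearman's rho of the fold change was 0.83 with gene number, 0.88 with GC content and -0.82 with the number of HindIII sites. These bins share libraries, and gene number, GC content and site density cannot be told apart here. Over the 2401 tested bins the same values were 0.61, 0.68 and -0.42.

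**Figure D2:**
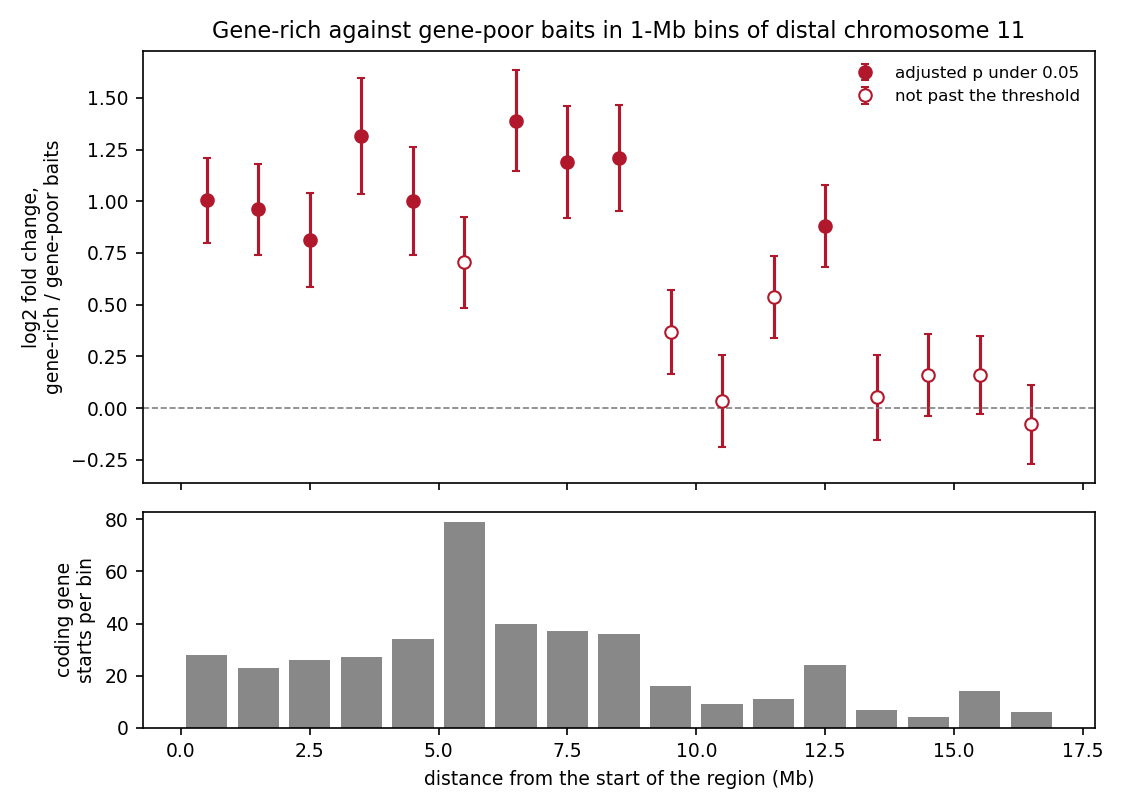
Top, edgeR log2 fold change of gene-rich over gene-poor baits (± SE) in the 17 bins of 1 Mb, by distance from the start of the stretch. Filled points are past an adjusted p of 0.05. Bottom, protein-coding gene starts per bin. Of the 9 filled points, 8 lie over bins with 24 or more gene starts.

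The highest fold change was in chr11:100000001-101000000, with 40 gene starts that include Krt14, Krt16 and Krt17 (keratins of the epidermis), Acly (a lipid synthesis enzyme) and Stat3, Stat5a and Stat5b (transcription factors of cytokine signalling). B26 captured 119 sites there against 68.6 expected and B87 161 against 62.2, while B7 captured 44 against 59.0 and B53 63 against 63.8. Its log2 fold change was 1.39 ± 0.24 (SE, edgeR adjusted p = 0.0108). Here both gene-rich baits were above their expected number, and both gene-poor baits were below it.

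The bin chr11:97000001-98000000, with Mllt6, Rpl23, Lasp1 and Rpl19 among its 27 gene starts, followed at 1.32 ± 0.28 (SE, edgeR adjusted p = 0.0141). B87 captured 154 sites there against 47.5 expected, its highest ratio in the stretch, and B26 94 against 52.4. B7 captured 42 against 45.1 and B53 58 against 48.7. The frequently captured site in Rpl19 lies in this bin.

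In chr11:102000001-103000000 the fold change was 1.21 ± 0.26 (SE, edgeR adjusted p = 0.0140). It holds 36 gene starts, among them Hdac5 (a histone deacetylase), Ubtf (a factor of ribosomal RNA transcription), Grn and Gfap (the glial intermediate filament protein). B26 captured 106 sites against 54.3 expected and B87 152 against 49.3, while B7 captured 45 against 46.8 and B53 67 against 50.5. B26 had its highest ratio of the stretch in this bin.

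The bins of the named landmark genes were also compared. The Brca1 bin (chr11:101000001-102000000, with the DNA repair gene Brca1 and the autophagy gene Becn1) had a fold change of 1.19 ± 0.27 (SE, edgeR adjusted p = 0.0175). The Erbb2 bin (chr11:98000001-99000000, with the receptor tyrosine kinase gene Erbb2, the nuclear receptor genes Thra and Rara, and the topoisomerase gene Top2a) had 1.00 ± 0.26 (SE, edgeR adjusted p = 0.0304). The Hoxb bin (chr11:96000001-97000000), which holds the homeobox genes that pattern the body axis, had 0.81 ± 0.23 (SE, edgeR adjusted p = 0.0366). All 3 bins were past the threshold.

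In the Hoxb bin B26 captured 100 sites against 61.5 expected and B87 126 against 55.8, while B7 captured 65 against 52.9 and B53 63 against 57.2. All 4 baits were above their expected number in this bin. In the Erbb2 bin B87 captured 169 against 57.1, and B44 had its highest ratio of the stretch, 309 against 181.

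The 3 lowest fold changes were in chr11:110000001-111000000 (-0.077 ± 0.19, SE, edgeR adjusted p = 0.829), chr11:104000001-105000000 (0.033 ± 0.22, SE, edgeR adjusted p = 0.938) and chr11:107000001-108000000 (0.053 ± 0.20, SE, edgeR adjusted p = 0.893). The first holds the lipid transporter genes Abca5, Abca6 and Abca9, the kinase gene Map2k6 and the potassium channel genes Kcnj2 and Kcnj16. The second holds Mapt, which encodes the microtubule protein tau, and Itgb3, an integrin of platelets. The Prkca bin (chr11:108000001-109000000), with the protein kinase C gene Prkca, the Wnt pathway gene Axin2 and only 4 gene starts, had 0.16 ± 0.20 (SE, edgeR adjusted p = 0.635).

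In the Kcnj2 and Prkca bins the gene-rich baits were near or below their expected number. In the Kcnj2 bin B26 captured 73 sites against 78.4 expected and B87 62 against 71.1, while B7 captured 62 against 67.5 and B53 79 against 72.9. In the Prkca bin B87 captured 69 against 79.6 and B26 93 against 87.8, while B7 captured 74 against 75.5 and B53 69 against 81.6. B118 had a log2 value of 0.40 in the Prkca bin. Distal chromosome 11 was therefore not captured evenly by the gene-rich baits, and some of its bins were at or below their expected number.

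The bin with the most gene starts was not the highest. The bin chr11:99000001-100000000, singled out after its values were seen, holds 79 gene starts, mostly keratin and keratin-associated protein genes, at a GC content of 43.8%. Its log2 fold change was 0.70 ± 0.22 (SE, edgeR adjusted p = 0.0522). B26 captured 103 sites there against 71.3 expected and B87 114 against 64.7, while B7 captured 72 against 61.4 and B53 60 against 66.3. Its neighbours on both sides had 1.00 and 1.39.

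**Figure D3:**
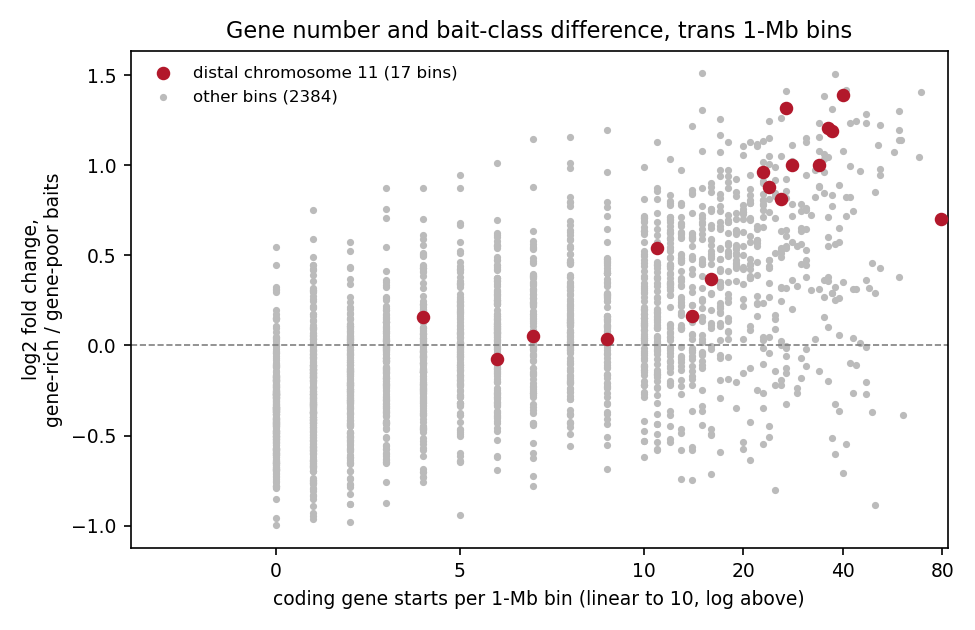
Log2 fold change of gene-rich over gene-poor baits (vertical axis) against protein-coding gene starts (horizontal axis) in the 2401 tested trans bins of 1 Mb. Red points are the 17 bins of distal chromosome 11 and grey points the other 2384 bins. The keratin bin, at 79 genes, lies at 0.70, below other red points with fewer genes.

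The 9 calls depended on B87. Without B87, edgeR called 0 of the 17 bins and 0% of 2406 tested bins (417 at an unadjusted p under 0.05), although 14 of the 17 fold changes stayed positive with a median of 0.52. Without B26 the count was 10 of 17, where 11.5% of all tested bins were higher. Without B7 it was 5 (2.87% of all) and without B53 6 (3.66% of all). With reads in place of captured sites, edgeR called 0 of 17 and 0 of 2431 bins (382 unadjusted), with a median of 0.72 over the 17. DESeq2 on captured sites tested 13 of the 17 bins and called 7, all higher, where 8.52% of all bins it tested were higher. Without the G0 libraries and 1 h replicate 2, edgeR called 8 of 17, where 4.63% of all bins were higher.

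The nearest bins beyond both ends of the stretch were not called, and they hold few genes. The 1-Mb bins just before its start had 0.14 ± 0.20 and -0.37 ± 0.20 (SE, edgeR adjusted p = 0.672 and 0.226). The bins just after its end had -0.27 ± 0.20 and -0.14 ± 0.19 (SE, edgeR adjusted p = 0.399 and 0.661). In the same order these bins hold 6, 1, 0 and 2 gene starts, at GC contents from 38.2% to 44.1%. The bin at the start of the stretch, with the collagen gene Col1a1, had 1.00 ± 0.20 (SE, edgeR adjusted p = 0.0130). On the rest of chromosome 11, 17 of 102 tested bins were called higher, and the highest fold change was 1.24.

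The baits differed in where along the stretch they made contact. In the 9 bins with 24 or more gene starts (331 genes), B87 averaged a log2 captured over expected of 1.23 ± 0.52 (SD, n = 10) and B26 0.69 ± 0.26 (SD, n = 11). B7 averaged 0.028 ± 0.27 and B53 0.071 ± 0.33 (SD, n = 11 each). In the 8 bins with fewer genes (90 genes), B87 averaged 0.39 ± 0.22 and B26 0.18 ± 0.21, against 0.083 ± 0.20 for B7 and -0.15 ± 0.47 for B53. The means in the 9 bins without the G0 libraries and 1 h replicate 2 were 1.41 for B87, 0.66 for B26, 0.020 for B7 and 0.035 for B53.

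B118 had another profile. It averaged 0.32 ± 0.23 in the 9 bins with many genes and 0.40 ± 0.20 in the 8 with few (SD, n = 10). These were 0.32 and 0.43 without the G0 libraries and 1 h replicate 2 (n = 7). Spearman's rho of its pooled values with gene number over the 17 bins was -0.40, where B87 had 0.82, B26 0.71, B44 0.48, B53 0.20 and B7 -0.071. Its highest ratios were in the Ace bin (chr11:105000001-106000000, 136 sites against 88.7 expected) and the Mapt and Itgb3 bin (150 against 99.6), where B87 had 94 against 63.1 and 89 against 70.9. These profiles are descriptions over bins of the same libraries.

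**Figure D4:**
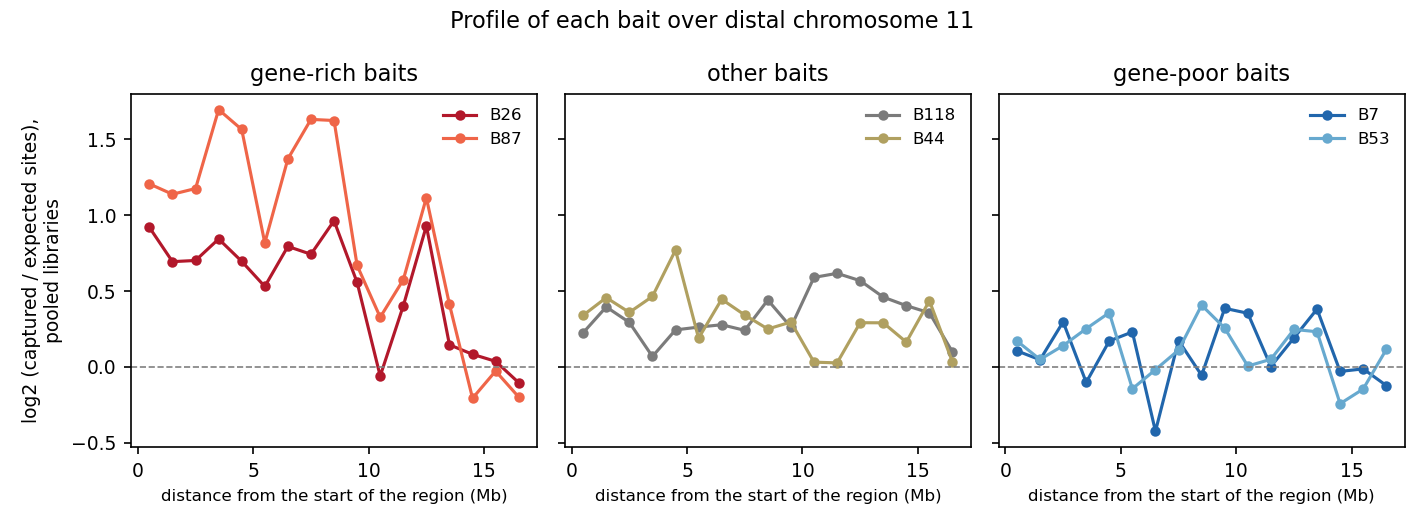
Log2 of captured over expected sites, pooled over a bait's libraries (vertical axis), in the 17 bins by distance from the start of the stretch, for the gene-rich baits (left), the other baits (middle) and the gene-poor baits (right). B87 and B26 are high in the first 9 bins and again in the bin of 24 genes 12 to 13 Mb from the start, and low in the last 3, and B118 is highest in the middle of the stretch.

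Named loci, each taken with 50 kb on both sides and pooled over the 2 baits of a class, were compared at a finer scale. These are descriptions with no test. The ratio of captured to expected sites at Col1a1, which encodes a chain of type I collagen, was 2.96 with gene-rich baits (25 sites against 8.44 expected) and 1.77 with gene-poor baits (14 against 7.92). From Rara to Top2a it was 2.50 with gene-rich and 1.38 with gene-poor baits. At the Stat genes it was 2.31 with gene-rich and 1.04 with gene-poor baits, and at Brca1 2.18 with gene-rich and 1.11 with gene-poor baits. By bait, Brca1 had 3.19 with B87 and 1.27 with B26, against 1.16 with B7 and 1.07 with B53.

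Around Erbb2, from Med1 to Ikzf3, gene-rich baits captured 129 sites against 59.6 expected (2.17) and gene-poor baits 77 against 55.9 (1.38). The classes were not apart bait by bait there, with 2.79 for B87, 1.60 for B26, 1.65 for B53 and 1.08 for B7. The type I keratin locus had 1.58 with gene-rich and 0.989 with gene-poor baits. From Ace to Gh the ratio was 1.74 with gene-rich and 1.12 with gene-poor baits, and over the Hoxb cluster 1.32 with gene-rich and 0.897 with gene-poor baits. Both classes were above their expected number at 10 of the 15 loci, among them all of the above but the keratin and Hoxb loci.

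At other loci the classes were closer. Gene-rich baits had ratios of 1.05 at Prkca, 1.17 at Axin2 and 1.03 at Mapt, against 1.04, 1.03 and 0.862 with gene-poor baits. At Itgb3 the ratio was 1.29 with gene-rich and 1.43 with gene-poor baits, and at Map2k6 1.23 with gene-rich and 1.31 with gene-poor baits. The Abca genes had 0.836 with gene-rich and 0.877 with gene-poor baits, and Kcnj2 with Kcnj16 had 0.811 with gene-rich and 0.672 with gene-poor baits. The loci of the Abca and Kcnj genes were below their expected number from both classes. Pooled gene-rich ratios were above pooled gene-poor ratios at 12 of the 15 loci, and at 13 without the G0 libraries and 1 h replicate 2. Leaving these libraries out moved no ratio by more than 1.19 times, and put the Abca genes at 0.842 with gene-rich and 1.04 with gene-poor baits.

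Captured sites were also placed relative to genes. Of all sites of distal chromosome 11, 34.4% lay within 10 kb of a protein-coding gene start and 58.9% inside such a gene. Of the sites a library captured there, the share near a start averaged 41.2% ± 5.89 for B87 (SD, n = 10) and 36.6% ± 8.27 for B26 (SD, n = 11). It was 34.5% ± 5.15 for B7 and 37.8% ± 4.40 for B53 (SD, n = 11 each). The SDs of the gene-rich and gene-poor baits overlapped, and B118 (32.7%) and B44 (33.3%) lay near the share of all sites. The shares without the G0 libraries and 1 h replicate 2 were 40.8% for B87, 37.2% for B26, 34.4% for B7 and 38.6% for B53.

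The time course asked whether contacts with distal chromosome 11 changed from mitosis into G1 and in G0. Mitosis was measured at B26, B44, B7 and B53 and not at B87 or B118. Over these 4 baits the mean log2 value was 0.25 in mitosis, 0.24 at 30 min, 0.29 at 1 h, 0.31 at 2 h, 0.18 at 3 h, -0.24 at 4 h, 0.24 in G2 and 0.23 in G0. Over all 6 baits it was 0.39 at 30 min, 0.40 at 1 h, 0.48 at 2 h, 0.46 at 3 h, 0.048 at 4 h, 0.33 in G2 and 0.26 in G0. The gene-rich bait B26 was at 0.47 in mitosis, while B7 was at 0.11 and B53 at 0.095.

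Neither of the 2 stage differences tested passed, and mitosis and G2 were not tested. Libraries of 2 to 4 h minus those of the first hour (30 min and 1 h) gave a mean difference over the 6 baits of -0.063 ± 0.32 (SD, n = 6, positive in 3 of 6 baits, adjusted p = 0.719, exact two-sided sign-flip permutation test, 2 comparisons). By bait it was -0.077 for B26, 0.087 for B87, 0.25 for B118, 0.20 for B44, -0.22 for B7 and -0.61 for B53. G0 minus 2 to 4 h gave -0.073 ± 0.40 (SD, n = 6, positive in 2 of 6, adjusted p = 0.719, same exact test). The smallest p that 6 baits allow is 0.0312. The first difference was -0.047 without the G0 libraries and 1 h replicate 2. Without the 4 h libraries it was 0.077, and without 2 h replicate 2 or G0 replicate 1 the second was 0.0013 and 0.00071.

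For 1-Mb bins, captured sites were summed over the baits of each labelled library. In these sums edgeR called 0 of the 17 bins of distal chromosome 11 between 2 to 4 h and the first hour. It called 0% of 2407 tested bins (129 at an unadjusted p under 0.05), and DESeq2 called 0, with 26 unadjusted. The median log2 fold change of the 17 bins was 0.087, and 14 of 17 were positive. With reads in place of sites 8 of 17 were positive, and 8 of 17 without 2 h replicate 2. The part of each bait in the sums differed between labels. B44 captured 89640 trans sites in 30 min replicate 1 and 33758 at 2 h, where B87 captured 28268 and 25560. With baits as separate libraries and bait as a block, edgeR called 0 of 1877 bins, and 14 of 17 were positive (median 0.054).

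The class difference was above 0 in 10 of 10 labelled libraries with all 4 baits, at differing sizes. Gene-rich minus gene-poor was 0.70 and 0.74 at 30 min, 0.36 and 0.67 at 1 h, 0.79 at 2 h, 1.17 at 3 h, 1.17 at 4 h, 0.23 in G2, and 0.072 and 0.65 in G0. At 3 h and 4 h the low values of B53, and of B7 at 4 h, stood beside the fewest captured sites of all labels. The part of library depth in this order was not tested.

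**Figure D5:**
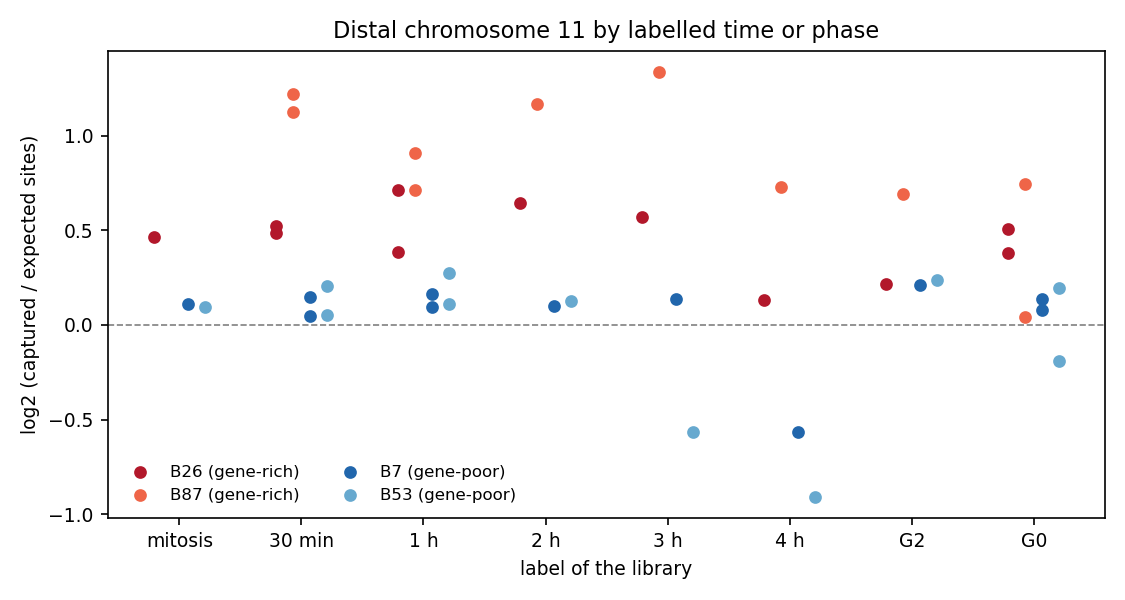
Log2 of captured over expected sites on distal chromosome 11 (vertical axis) by label of the library, for the gene-rich baits B26 and B87 and the gene-poor baits B7 and B53. Each point is 1 library. Most red points lie above the blue ones, with overlap in G2 and G0, and the lowest points are B53 at 3 h and 4 h and B7 at 4 h.

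In G2, B87 was at 0.69 and B26 at 0.22, against 0.21 for B7 and 0.24 for B53, so that B26 lay between the gene-poor baits in that single library. In G0, B87 was at 0.040 and 0.74 and B26 at 0.38 and 0.51. B7 was at 0.079 and 0.14 there, and B53 at 0.20 and -0.19. With 1 or 2 libraries per bait and label, no label was tested alone.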

How the data were processed

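The deposited table holds raw counts of reads per HindIII site, as given by the authors, for 109 columns. BWA 0.5.9 and the mm9 build are named in the submitters' processing notes, and read filters are not given in the sources used here. All positions equalled HindIII sites of mm9. Columns were matched to samples by title. The 70 columns of the 6 chromosome 8 baits without 1.5 h had their reads beside the labelled bait, and 35 of the other 39 did not, so that these 39 were left out. Dropping the 2 h technical replicate 1 column left 64 libraries. Labels call most replicates biological but do not say whether baits share cultures, so p-values measure only the spread between these libraries or baits.

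A captured site had 1 read or more. Expected numbers were captured trans sites times the share of trans sites in the stretch (pseudocount 0.5). Sites were summed in 1-Mb bins and tested with edgeR 4.0.16 (filterByExpr, TMM, glmQLFit robust, glmQLFTest; R 4.3.3) over all trans bins, with Benjamini-Hochberg adjustment at 0.05, and with DESeq2 1.42.0 as an alternative. The edgeR standard error was taken from the quasi-likelihood F. Permutation tests used Python 3.11.15 with numpy 2.4.6, scipy 1.17.1, pandas 2.3.3 and statsmodels 0.14.6. The scripts were tested on simulated data. Genes came from the annotation of the same build (GENCODE). Coordinates are 1-based.

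The members, gene lists and tests were chosen with earlier results of these data known. Named bins were the 3 highest and 3 lowest fold changes of the 17 and those of Hoxb1, Erbb2, Brca1, Prkca and Kcnj2, and exceptions are stated. Alternatives were other read minimums (2 and 10), reads, a pseudocount of 1, other references, chromosomes, bin sizes (500 kb and 2 Mb), filters, scalings and a replicate block, and each library or bait left out. Added after the data were seen were fits without 3 h and 4 h, without G0 and 1 h replicate 2, and with the rest of chromosome 11 as reference.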

Additional observations from a re-analysis of the deposited data

Results flagged for a closer look

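The B87 library labelled G0 replicate 1 stood apart from the other 9 libraries of B87 on distal chromosome 11. It captured 62 sites among 10111 trans sites, against 60.3 expected, a log2 value of 0.040, while the next lowest B87 library was at 0.69. It was the only outlying library in the 9 groups of 4 to 10 values that were examined, and chance marks about 1 in 20 such groups. The full sets of B26, B44, B7 and B53, with 11 libraries each, were not examined. Among these, B7 labelled 4 h (-0.56) also lay far below the next lowest B7 library (0.050). In the G0 replicate 1 library B87 was also low on the other gene-dense bins (0.058, against a mean of 0.66).

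G0 minus 2 to 4 h was negative at both gene-rich baits, at -0.0069 for B26 and -0.69 for B87, and positive at both gene-poor baits, at 0.22 for B7 and 0.45 for B53. The mean of the gene-rich baits minus that of the gene-poor baits was -0.68. This difference was not tested, since 2 baits against 2 allow no p under 0.333. The opposition did not hold in other sets of libraries. Without the sparse 3 h and 4 h libraries the differences were -0.20 for B26 and -0.78 for B87, against 0.0066 for B7 and -0.12 for B53, and without 4 h alone B7 was at -0.011. Without G0 replicate 1, B26 was at 0.058 and B87 at -0.33.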

How the results depend on the processing

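The gene-rich minus gene-poor difference kept its direction and its side of the threshold under all 26 alternatives (0.44 to 0.85), as did the comparison with other gene-dense bins under 23 (0.12 to 0.44) and with the rest of chromosome 11 under 21 (0.45 to 0.85). All of these took libraries as units, and 2 baits against 2 allow no exact two-sided p under 0.333. Same-labelled libraries of different baits did not deviate together over trans bins (r -0.033 to 0.036, 0 of 10 labels over 0.1). Such bins hold few captured sites per library, so these values cannot decide whether the labels pair the libraries. With the labelled library as a replicate block the difference was 0.66 (p = 0.00195, exact permutation test), and single libraries with replicate block gave 585 called bins of 1687, 10 of them on distal chromosome 11. Single libraries without the block gave 104 called bins, and none of the 221 bins tested lay on distal chromosome 11.

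For B7, the value was -0.053 at 10 reads or more, -0.27 with reads and -0.21 with the sites other baits captured as reference (both adjusted p = 0.00586, permutation test), -0.28 with the rest of chromosome 11, and 0.12 without 3 h and 4 h. For B53 it was -0.20 with reads, -0.27 with sites of other baits (adjusted p = 0.0293, permutation test), -0.28 with the rest of chromosome 11, and 0.12 without 3 h and 4 h. B44 fell to 0.062 with sites of other baits (adjusted p = 0.0986, permutation test) and B26 to 0.075 with the rest of chromosome 11. The sites of other baits leave out all sites that no other bait captured, so values with that reference are relative to those captured sites. Leaving out 1 label at a time gave 0.045 to 0.12 for B7 and -0.064 to 0.054 for B53, where 3 h (0.020) and 4 h (0.054) turned the sign. The 2 to 4 h minus first hour difference ran from -0.14 to 0.077 with 1 label or bait left out (0.047 without B53, 0.077 without 4 h), and was 0.086 without 3 h and 4 h. G0 minus 2 to 4 h ran from -0.21 to 0.049 (0.0013 without 2 h replicate 2, 0.00071 without G0 replicate 1, 0.049 without B87), and was 0.035 with reads. The cause of these turns was not tested.

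Called bins of the class comparison (258) numbered 90 with DESeq2, which tested 1021 bins, 452 in 500-kb bins, 0 with reads, 405 without G0 and 129 without G0 and 1 h replicate 2, and 0 to 345 with 1 bait left out. Those of distal chromosome 11 (9) numbered 15 of 34 in 500-kb bins, where 7.45% of all 4739 tested bins were higher. They numbered 0 with reads, and 0 to 10 with 1 bait left out. Called bins between 2 to 4 h and the first hour (0) ran from 0 to 1 with 1 label left out, the 1 without 30 min replicate 1. The libraries with few captured sites (2801 to 11193 at 3 h and 4 h) limit the values at those labels.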
